A study of Arabidopsis thaliana with 204 samples.

Results

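The CBF regulon of Arabidopsis and other genes linked to cold are described here through 10 loci of the 33602 in the table, chosen by locus identifier. They were 3 transcription factor genes, CBF1 (AT4G25490), CBF2 (AT4G25470) and CBF3 (AT4G25480), 2 zinc finger genes, ZAT10 (AT1G27730) and ZAT12 (AT5G59820), and 5 cold-induced effector genes, COR15A (AT2G42540), COR15B (AT2G42530), COR47 (AT1G20440), ERD10 (AT1G20450) and COR414-TM1 (AT1G29395). All 10 averaged 1 normalized read count or more and were tested among 19963 genes. These genes and the gene lists used below were chosen with earlier results of these data known. Shares over all genes are thus set beside their counts as a description. The plants were 28-day-old Arabidopsis thaliana of the wild-type accession Col-0, grown at 20 °C with 9 h of light and 15 h of dark. In FRtip plants the tip of the leaf received supplemental far-red light that lowered the red to far-red ratio (R/FR) there to 0.05, the light signal of neighboring plants. WL plants stayed in white light with an R/FR of 2. No sample was exposed to cold. The leaf tip, the lower (abaxial) side of the petiole and the upper (adaxial) side of the petiole were harvested separately, with 13 plants pooled in a sample. The leaf tip was sampled at 40, 60, 80, 100, 120, 140, 160, 180 and 300 min of treatment, and both petiole sides were compared from 60 min on. Each group compared held 4 samples, except leaf tips in WL at 40 min with 3, and 5 further petiole samples of 40 min, 1 or 2 in a group, were not tested. The sources used here do not say whether the replicates came from separate rounds of cultivation, so p-values measure only the spread between these pooled samples.

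CBF proteins, also called DREB1, are AP2-domain transcription factors that accumulate when plants are chilled and bind CRT/DRE elements upstream of cold-regulated (COR) genes. The effector proteins protect cells from freezing and dehydration, for instance by stabilizing chloroplast membranes. CBF transcription is also known to respond to light quality, with higher levels at low R/FR, to be repressed by the phytochrome-interacting factors PIF4 and PIF7, and to be gated by the circadian clock.

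Across all 204 samples, depth ran between 805840 and 5538648 reads, with medians of 1710470 for leaf tips, 2797816 for abaxial and 2353833 for adaxial petioles. Values are normalized read counts, that is reads scaled by the size factor of their sample, so that 1 read was worth 0.373 to 3.25. The shade marker PIL1 had between 296 and 2626 normalized read counts in FRtip leaf tips, against 0 to 9.08 in WL leaf tips, so the treatment label held in every leaf tip library. The summed level of 4 adaxial marker genes ranged between 162 and 271 in FRtip leaf tips, against 177 and 298 in WL leaf tips, and that of 6 abaxial marker genes between 325 and 434, against 327 and 431. In WL petioles, all 4 adaxial markers were lower and 5 of the 6 abaxial markers were higher on the abaxial side, KAN2 being the exception, and no marker was at 0 throughout. In bulk tissue, fewer cells of a type and less RNA per cell cannot be told apart.

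Sequence upstream of the genes was read from the TAIR10.1 genome of RefSeq, on the strand of each gene and 5′ to 3′. The 300 bases before the annotated transcript start are shown for a transcription factor gene and 2 effector genes that rose in the leaf tip, with CRT/DRE elements (ACCGAC or GCCGAC, either strand) and G-boxes (CACGTG) in capitals. The windows are chr4:13016236-13016535 for CBF2, chr2:17712331-17712630 for COR15A and chr1:10289667-10289966 for COR414-TM1, all on the minus strand.
CBF2: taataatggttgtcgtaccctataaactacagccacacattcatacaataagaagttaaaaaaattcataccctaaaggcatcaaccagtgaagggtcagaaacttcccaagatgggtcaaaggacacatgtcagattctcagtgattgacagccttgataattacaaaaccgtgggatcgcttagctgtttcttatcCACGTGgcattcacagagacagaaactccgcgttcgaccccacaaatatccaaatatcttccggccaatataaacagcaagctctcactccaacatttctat
COR15A: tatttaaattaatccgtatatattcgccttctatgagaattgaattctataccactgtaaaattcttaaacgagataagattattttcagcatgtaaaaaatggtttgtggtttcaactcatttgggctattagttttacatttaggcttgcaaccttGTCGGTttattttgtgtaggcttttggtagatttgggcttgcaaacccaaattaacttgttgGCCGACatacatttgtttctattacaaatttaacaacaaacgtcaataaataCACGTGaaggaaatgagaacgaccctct
COR414-TM1: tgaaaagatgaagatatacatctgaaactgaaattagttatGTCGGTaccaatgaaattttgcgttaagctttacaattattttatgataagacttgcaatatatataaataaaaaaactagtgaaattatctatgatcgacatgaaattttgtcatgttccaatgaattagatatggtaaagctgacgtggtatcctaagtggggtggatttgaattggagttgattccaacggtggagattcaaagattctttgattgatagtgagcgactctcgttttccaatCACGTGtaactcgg
CBF2 held a G-box and no CRT/DRE element in this window, COR15A held both kinds, and COR414-TM1 held 1 of each. The other 3 effector genes had a CRT/DRE element in the annotated 5′ UTR, shown as 26 bases on the minus strand at chr2:17710124-17710149, chr1:7085918-7085943 and chr1:7089367-7089392.
COR15B: caacttgatgGCCGACctcttttttc
COR47: atattcatctACCGACttcaagaaat
ERD10: tcatccACCGACCGACCGACgtaaaa
The capitals of ERD10 hold 3 overlapping elements. COR15A had a further CRT/DRE element at -267 from its start codon, and its outermost annotated transcript starts 364 bases before that codon. In the 1000 bases before the start codon, 6 of the 10 genes had a CRT/DRE element on either strand, against 23.1% of 27442 genes. These were the 5 effector genes and ZAT10. The G-box was found in 7 of the 10, against 15.1% of genes, and the evening element of the clock (AAAATATCT, either strand), which does not overlap the others in its letters, in 6 of the 10, against 7.26%. A match is a description of the letters and not a bound site.

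The 3 CBF genes lie side by side on chromosome 4 (CBF2 at chr4:13015250-13016235, CBF3 at chr4:13018010-13019400, CBF1 at chr4:13021780-13022996), each with 1 exon. COR15B (chr2:17708593-17710433) and COR15A (chr2:17710441-17712330) are neighbors, as are COR47 (chr1:7084409-7086873) and ERD10 (chr1:7087903-7089606). COR414-TM1 is at chr1:10288129-10289666, ZAT10 at chr1:9648021-9649323 and, on the plus strand, ZAT12 at chr5:24102814-24103794. Coding sequences were 85 to 86.7% identical between pairs of CBF genes, 82.6% between COR15A and COR15B and 73.5% between COR47 and ERD10. How reads matching several genes were counted is not given in the sources used here, so the split of reads within these groups is uncertain.

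Leaf tips responded with 8 of the 10 genes, which rose in FRtip in every window tested. These were CBF1, CBF2, CBF3 and the 5 effector genes. Over all genes tested, 4.31% were higher at 40-80 min, 12.5% at 100-180 min and 5.42% at 300 min, at an adjusted p below 0.05. ZAT10 and ZAT12 did not pass in any of the 3 windows. The median log2 fold change of the 10 genes, FRtip minus WL on the log2(normalized read count + 1) scale, was 1.00 at 40-80 min, 2.31 at 100-180 min and 2.08 at 300 min, against -0.02, -0.01 and -0.01 for all genes.

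CBF3 had the largest log2 fold change of the 5 transcription factor genes at 40-80 min. At 60 min it had 14.2, 14.1, 6.40 and 11.2 normalized read counts in FRtip leaf tips, against 1.94, 0, 4.17 and 5.59 in WL leaf tips. At 80 min it had 38.6, 39.3, 26.2 and 26.2 in FRtip, against 3.79, 8.45, 1.49 and 2.66 in WL. Every FRtip sample was above every WL sample at all 9 time points, although at 40 min the values were only 3.14, 4.10, 4.09 and 4.93 in FRtip, against 2.41, 1.64 and 2.42 in WL. At 180 min CBF3 had 137, 126, 107 and 141 in FRtip leaf tips, against 31.04, 47.6, 31.9 and 22.2 in WL leaf tips. At 300 min it had 196, 173, 153 and 145 in FRtip, against 58.5, 44.7, 73.2 and 67.5 in WL. The level thus climbed with time in both treatments. Its log2 fold change was 1.83 ± 0.20 (SE, adjusted p = 7.1e-11) at 40-80 min, 2.42 ± 0.15 (3.0e-21) at 100-180 min and 1.45 ± 0.34 (0.00158) at 300 min.

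CBF2 was near its WL level at 60 min, with 2.37, 3.53, 3.20 and 2.25 normalized read counts in FRtip leaf tips, against 1.94, 4.57, 1.39 and 1.86 in WL leaf tips. By 80 min the groups no longer overlapped, with 5.94, 8.54, 17.5 and 17.5 in FRtip, against 0, 3.38, 0 and 0 in WL. Between 100 and 180 min the lowest, median and highest of 20 samples were 6.49, 25.9 and 48.5 in FRtip leaf tips, against 0, 5.94 and 11.9 in WL leaf tips. Unlike CBF3, CBF2 had its highest group mean at 180 min in both treatments, 33.5 ± 11.7 in FRtip and 9.06 ± 2.31 in WL (SD, n = 4 each), and at 300 min it averaged 14.7 ± 5.68 in FRtip and 3.05 ± 2.38 in WL (SD, n = 4 each). Its log2 fold change was 1.32 ± 0.30 (adjusted p = 0.00102) at 40-80 min, 2.33 ± 0.23 (3.1e-13) at 100-180 min and 2.19 ± 0.51 (0.00145) at 300 min. The call at 300 min was lost without replicate 1, with an adjusted p of 0.0508.

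CBF1 was the CBF gene with the fewest reads. In the 11 WL leaf tips of 40-80 min it had 2 reads in all, against 16 reads in 12 FRtip leaf tips, a ratio of 6.88 with a 95% counting interval of 1.62 to 61.7 that covers counting error only. At 80 min it had 5.94, 1.71, 7.27 and 2.91 normalized read counts in FRtip leaf tips, against 0 in all 4 WL leaf tips. Between 100 and 180 min the lowest, median and highest were 3.25, 12.1 and 26.2 in FRtip, against 0, 1.07 and 5.92 in WL, and 9 of the 20 WL samples had no read. At 300 min it had 37.5, 27.4, 16.4 and 25.6 in FRtip leaf tips, against 8.53, 2.89, 5.42 and 7.79 in WL leaf tips, without overlap. As log2 fold changes, these were 2.54 ± 0.22 (adjusted p = 4.3e-15) at 100-180 min and 1.98 ± 0.50 (0.0033) at 300 min. At 40-80 min it was called with an adjusted p of 0.00584, which was lost with a pseudocount of 5 (0.0866), without replicate 3 (0.0870) and with edgeR on the recovered reads (0.0965).

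**Figure D1:**
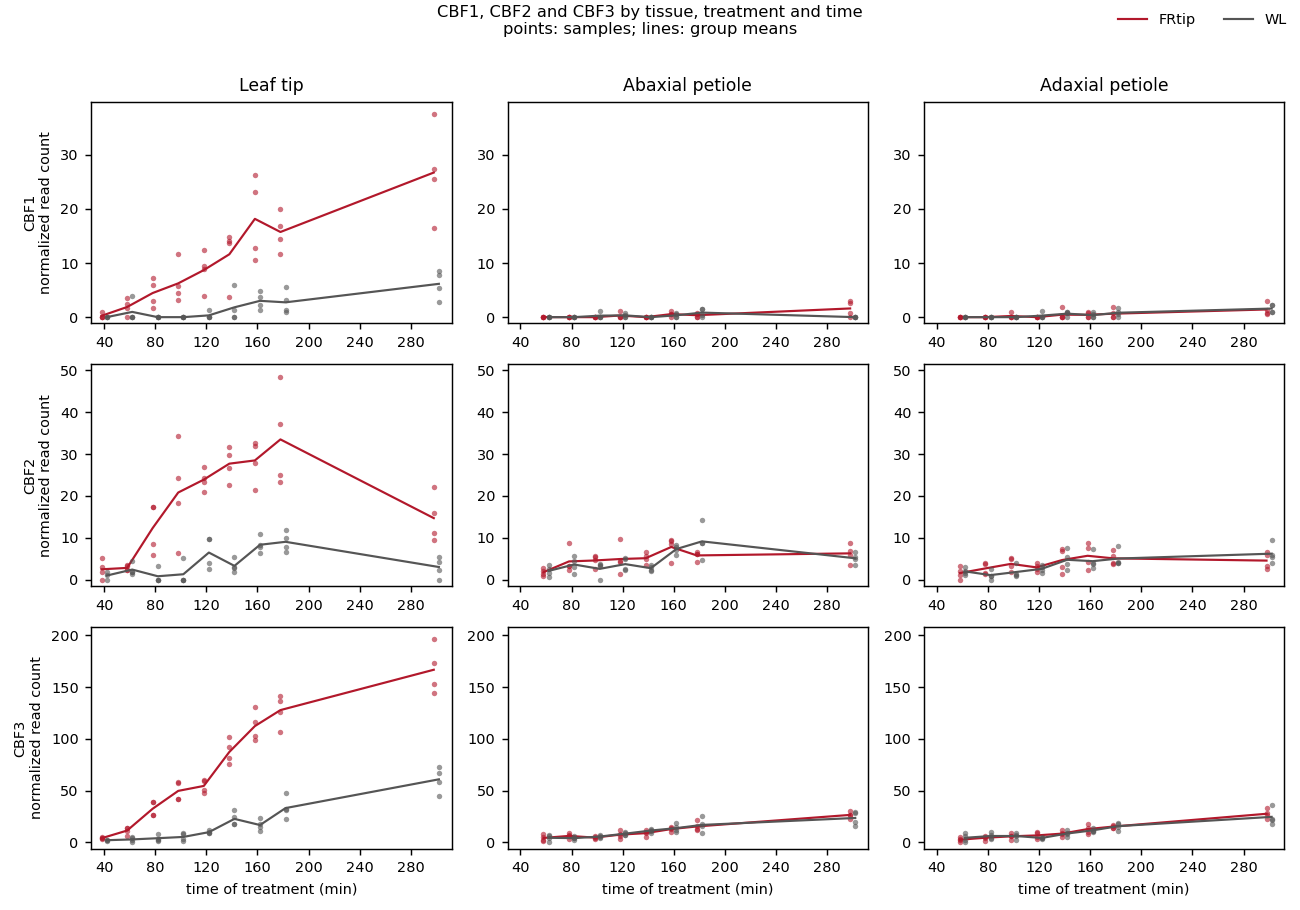
Normalized read counts of CBF1, CBF2 and CBF3 (linear axis) against the time of treatment in min, for FRtip (red) and WL (gray) in the leaf tip, abaxial petiole and adaxial petiole. Points are samples and lines are group means. CBF3 in the leaf tip reached 145 to 196 in FRtip at 300 min, above the 44.7 to 73.2 in WL. In the petioles the treatments overlapped at every time point.

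COR414-TM1, which encodes a protein of the inner chloroplast envelope, was the earliest of the 10 genes by the rule used for single time points, an unadjusted p under 0.01 with a log2 fold change above 0.3. At 40 min it had 141, 106, 126 and 118 normalized read counts in FRtip leaf tips, against 49.3, 53.996 and 45.9 in WL leaf tips, a log2 fold change of 1.28 ± 0.12 (unadjusted p = 1.3e-05, adjusted p = 0.00458). Every FRtip sample was above every WL sample at all 9 time points, and also over the pooled 20 samples of 100-180 min, with a lowest value of 299 in FRtip and a highest of 256 in WL. At 300 min it had 2005, 1819, 1967 and 1874 in FRtip leaf tips, against 467, 269.8, 387 and 454 in WL leaf tips. By window, the log2 fold change of COR414-TM1 was 1.74 ± 0.10 (adjusted p = 1.7e-22) at 40-80 min, 2.31 ± 0.08 (2.6e-35) at 100-180 min and 2.31 ± 0.17 (6.8e-17) at 300 min.

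COR15A and COR15B encode small proteins of the chloroplast stroma that shield membranes during freezing. At 80 min COR15A had 1044, 687, 934 and 1102 normalized read counts in FRtip leaf tips, against 576, 287, 457 and 397 in WL leaf tips. At 300 min it had 21753, 18316, 22415 and 19707 in FRtip, against 3920.4, 2610.1, 3632 and 3753 in WL. The groups were apart at both times, and the log2 fold change of COR15A was 0.63 ± 0.13 (adjusted p = 0.000233) at 40-80 min, 2.45 ± 0.10 (5.0e-31) at 100-180 min and 2.57 ± 0.22 (1.5e-14) at 300 min. COR15B had 311, 208, 142 and 258 in FRtip leaf tips at 60 min, against 116, 117, 90.4 and 129 in WL leaf tips. At 300 min COR15B had 7803, 6343, 8567 and 7401 in FRtip, against 3000.0, 2006, 2894 and 2734 in WL. Its log2 fold change was 1.04 ± 0.12 (1.7e-10) at 40-80 min, 1.95 ± 0.09 (3.6e-28) at 100-180 min and 1.51 ± 0.20 (2.5e-08) at 300 min.

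COR47 and ERD10 are dehydrins, hydrophilic proteins that protect membranes and other proteins from water loss. At 300 min COR47 had 4721, 2334, 4435 and 3471 normalized read counts in FRtip leaf tips, against 848, 447, 621 and 598 in WL leaf tips. ERD10 had 8285, 5107, 6742 and 6121 in FRtip, against 1629.8, 1212, 1267 and 1283 in WL. Neither gene overlapped between treatments at 300 min, and ERD10 was apart at all 9 time points. Between 100 and 180 min ERD10 had a lowest, median and highest value of 907, 1912 and 3251 in FRtip leaf tips, against 208, 377 and 561 in WL leaf tips. For ERD10 the log2 fold change was 0.97 ± 0.11 (adjusted p = 1.2e-10) at 40-80 min, 2.31 ± 0.08 (1.4e-33) at 100-180 min and 2.27 ± 0.18 (2.7e-15) at 300 min. That of COR47 was 0.42 ± 0.13 (0.0219), 1.82 ± 0.10 (1.0e-24) and 2.56 ± 0.22 (1.5e-14) in the same windows. The first of these calls was lost without replicate 3 (adjusted p = 0.143) and without replicate 4 (0.0906).

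**Figure D2:**
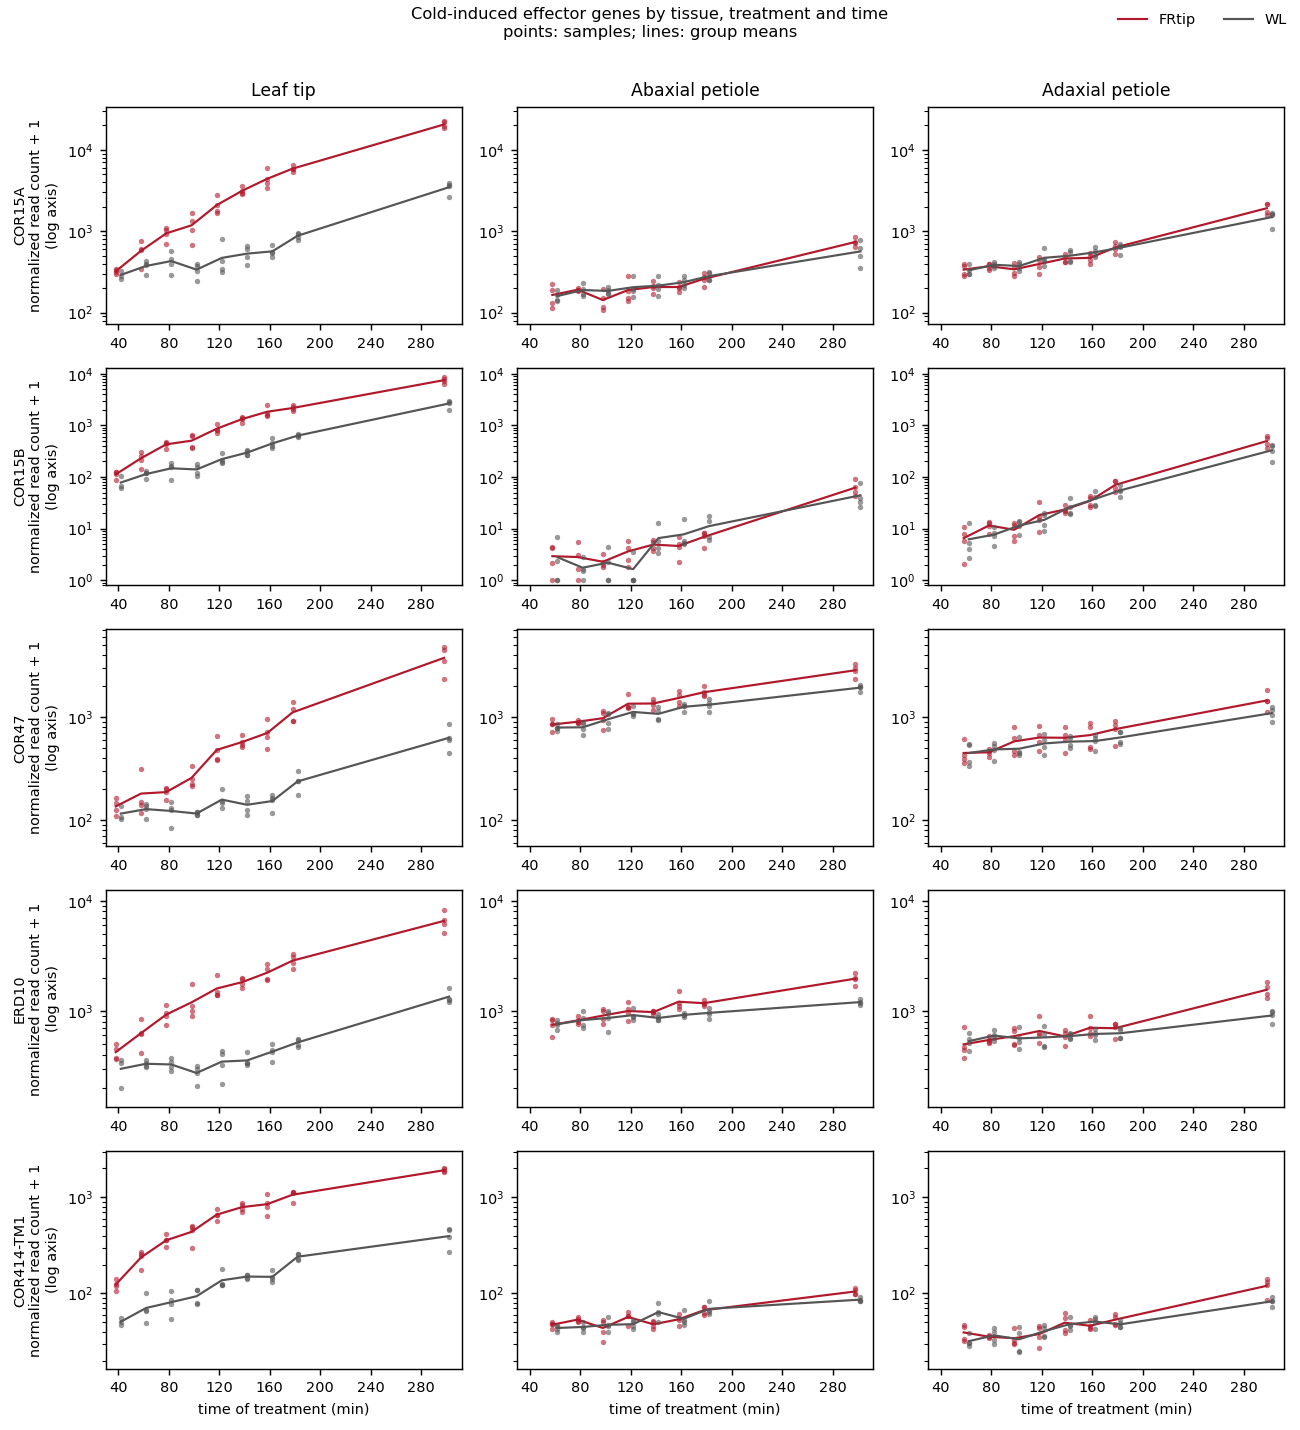
Normalized read counts plus 1 of COR15A, COR15B, COR47, ERD10 and COR414-TM1 on a log axis against the time of treatment in min, for FRtip (red) and WL (gray) in 3 tissues. Points are samples and lines are group means. The red points leave the gray ones in the leaf tip between 40 and 80 min, and COR414-TM1 was already at 106 to 141 in FRtip at 40 min, against 45.9 to 53.996 in WL.

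ZAT10 and ZAT12 encode C2H2 zinc finger proteins that respond to many stresses, cold among them. ZAT10 scattered widely between replicates. At 140 min it had 9.93, 13.2, 9.86 and 11.6 normalized read counts in FRtip leaf tips, against 2.75, 15.8, 7.75 and 46.2 in WL leaf tips. At 300 min it had 11.9, 9.13, 15.1 and 5.56 in FRtip, against 2.44, 2.89, 0 and 24.7 in WL. Replicate 4 of WL was the highest sample at both times, and the groups overlapped. The log2 fold change of ZAT10 was 0.84 ± 0.45 (adjusted p = 0.291) at 40-80 min, 0.85 ± 0.34 (0.0504) at 100-180 min and 1.33 ± 0.76 (0.317) at 300 min. Without replicate 4 it passed in the middle window (1.11, adjusted p = 0.0169) and at 300 min (2.43, 0.0425), and in the middle window it also passed with a pseudocount of 0.5 (0.0468) and with the replicate number as a block (0.0439).

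ZAT12 was close to the detection limit in the leaf tip, between 0 and 6.74 normalized read counts in FRtip and 0 and 8.65 in WL over 100-180 min. Its log2 fold change was 0.63 ± 0.41 (adjusted p = 0.422) at 40-80 min, -0.57 ± 0.31 (0.163) at 100-180 min and 0.52 ± 0.68 (0.759) at 300 min. The 1 lower call among the single time points of the leaf tip was ZAT12 at 100 min, where all 4 FRtip samples had no read and the WL samples had 2.17, 3.39, 4.53 and 2.65. Over all genes and leaf tip time points, 4.48% were lower by this rule, and in 6.62% every FRtip sample was below every WL sample.

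**Figure D3:**
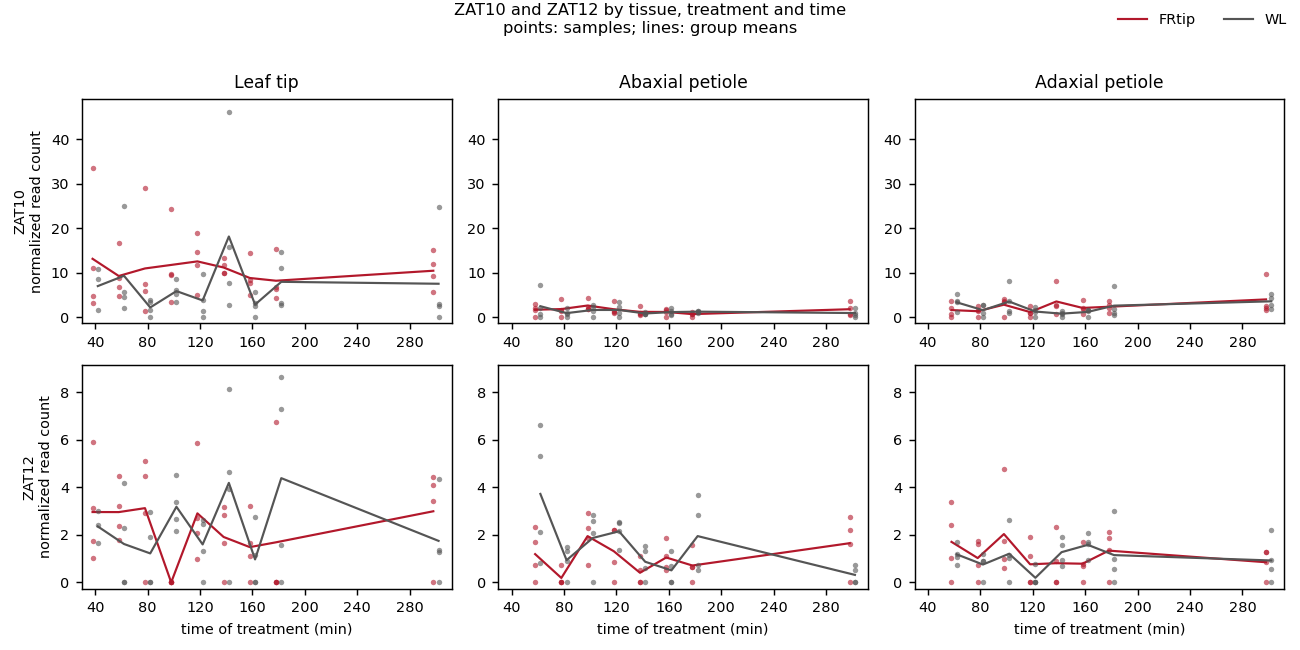
Normalized read counts of ZAT10 and ZAT12 (linear axis) against the time of treatment in min, for FRtip (red) and WL (gray) in 3 tissues. Points are samples and lines are group means. The treatments overlap for ZAT10, whose highest leaf tip value at 140 min, 46.2, was a WL sample, and ZAT12 stayed at 8.65 or less in the leaf tip between 100 and 180 min.

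By the single time point rule, 60 of the 90 combinations of gene and time point in the leaf tip were higher in FRtip, against 4.11% over all genes. In 62 of the 90, every FRtip sample was above every WL sample, against 5.61% over all genes. COR414-TM1 passed at 9 of 9 time points, COR15B and ERD10 at 8, from 60 min on, and CBF1, CBF2, CBF3, COR15A and COR47 at 7, from 80 min on. The effector genes COR414-TM1, COR15B and ERD10 thus passed the rule at an earlier time point than any CBF gene. The order of onset itself was not tested, and the few reads of CBF1 and CBF2 at 40 and 60 min limit what could be detected there. CBF3 missed the rule at 60 min (limma, unadjusted p = 0.0121), although its log2 fold change was 1.93 ± 0.60. At 60 min that of COR414-TM1 was 1.78 ± 0.22, that of COR15B 0.97 ± 0.23 and that of ERD10 0.88 ± 0.19. By the adjusted p of limma at 60 min, COR15B (0.0812) and ERD10 (0.0513) did not pass either. Between 40-80 and 300 min the FRtip effect differed for 3 of the 10 genes, against 8.30% over all genes. The log2 fold change was larger at 300 min by 2.14 ± 0.25 for COR47 (adjusted p = 3.1e-09), 1.95 ± 0.26 for COR15A (5.2e-08) and 1.30 ± 0.21 for ERD10 (9.8e-06). With a pseudocount of 5, limma also called COR414-TM1 (0.61, adjusted p = 0.0331) and CBF1 (1.11, 0.00755). COR414-TM1 was called as well with a minimum mean of 10 (0.56, 0.0464), without replicate 4 (0.77, 0.0164) and with edgeR (0.55, 0.0355).

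On the abaxial side of the petiole, away from the treated tip, the calls were few. At 60-80 min limma called none of the 10 genes, 1 had an unadjusted p below 0.05 and edgeR also called 0, against 0.00501% higher over all genes. At 100-180 min COR47 and ERD10 rose, 2 of the 10, against 5.93% of all genes. At 300 min 3 of the 10 rose, CBF1, COR47 and ERD10, against 2.92% of all genes. By limma 5 of the 10 had an unadjusted p below 0.05 at that time, against 4036 of 19963 genes in either direction. The median log2 fold change of the 10 genes was 0.09, -0.03 and 0.53 in the 3 windows, against 0.002, -0.006 and 0.005 for all genes. At 300 min all 10 had a positive log2 fold change, the lowest being 0.20.

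The 2 dehydrin genes, COR47 and ERD10, were called in both later windows. At 180 min COR47 had 1638, 1582, 1982 and 1743 normalized read counts in FRtip abaxial petioles, against 1377, 1118, 1484 and 1283 in WL abaxial petioles. At 300 min it had 3238, 2344, 2776 and 2985 in FRtip, against 2051, 1744, 1973 and 1933 in WL. ERD10 at 300 min had 2229.9, 1693, 1979 and 1947 in FRtip abaxial petioles, against 1283, 1139, 1183 and 1204 in WL abaxial petioles. In all of these sets the treatments did not overlap. The log2 fold change of COR47 was 0.26 ± 0.06 (adjusted p = 0.000454) at 100-180 min and 0.55 ± 0.12 (0.00202) at 300 min, and that of ERD10 was 0.21 ± 0.05 (0.00485) and 0.70 ± 0.12 (4.3e-05).

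The abaxial call of CBF1 rested on few reads. It had 2.96, 0.775, 0 and 2.69 normalized read counts at 300 min in FRtip abaxial petioles, 10 reads in all, against 0 reads in the 4 WL abaxial petioles, at least 3.80-fold higher when the WL group is set to 3 reads, with a lower 95% counting limit of 2.55-fold against the 0 reads themselves. The groups touched at 0, and the call (adjusted p = 0.0104) was lost without replicate 1 (0.117) and without replicate 4 (0.214). CBF3 at 300 min had 26.6, 26.3, 22.7 and 30.7 in FRtip, against 28.7, 20.2, 29.5 and 16.2 in WL, a log2 fold change of 0.20 with a 95% confidence interval of -0.51 to 0.91. COR15A averaged 738 in FRtip and 564 in WL at 300 min (n = 4 each), with a log2 fold change of 0.44 ± 0.20 (adjusted p = 0.194), and COR414-TM1 103.8 and 85.2, with 0.28 ± 0.13 (0.211). COR414-TM1 did not overlap at 300 min, with a lowest value of 97.2 in FRtip and a highest of 91.0 in WL. By the single time point rule 4 of 80 combinations were higher, COR47 at 180 and 300 min and ERD10 at 160 and 300 min, against 2.23% over all genes. In 7 of the 80 every FRtip sample was above every WL sample, against 3.54%.

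On the adaxial side ERD10 at 300 min was the only call by limma, without a replicate block, among the 10 genes in the 3 windows. In the first window 0 of the 10 genes passed with limma, 0 had an unadjusted p below 0.05 and edgeR called 0, against 0.0150% higher over all genes. At 100-180 min limma and edgeR again called 0 of the 10, 2 had an unadjusted p below 0.05, and 3.31% of all genes were higher. With the replicate number as a block, limma called COR47 in that window (0.18, adjusted p = 0.0391). At 300 min 1 of the 10 was called, against 1.40% of all genes. By limma 4 of the 10 had an unadjusted p below 0.05 at that time, against 2800 of 19963 genes in either direction. ERD10 then had 1812, 1322, 1654 and 1434 normalized read counts in FRtip adaxial petioles, against 988, 763, 909 and 972 in WL adaxial petioles, without overlap and with a log2 fold change of 0.77 ± 0.15 (adjusted p = 0.000531). COR414-TM1 had 139.7, 84.4, 129 and 123 in FRtip, against 91.3, 70.8, 83.2 and 81.8 in WL, with 1 FRtip sample inside the WL range and a log2 fold change of 0.52 ± 0.17 (0.0810). edgeR on the recovered reads called COR414-TM1 (0.56, adjusted p = 0.00318) and COR15B (0.60, 0.0105) as well. COR15B averaged 495 in FRtip and 328 in WL at 300 min (n = 4 each), a log2 fold change of 0.62 ± 0.37 (0.483) in limma. By the single time point rule 2 of 80 combinations were higher, ERD10 and COR414-TM1 at 300 min, against 1.34% over all genes, and in 1 of the 80 FRtip was wholly above WL, against 2.43%.

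**Figure D4:**
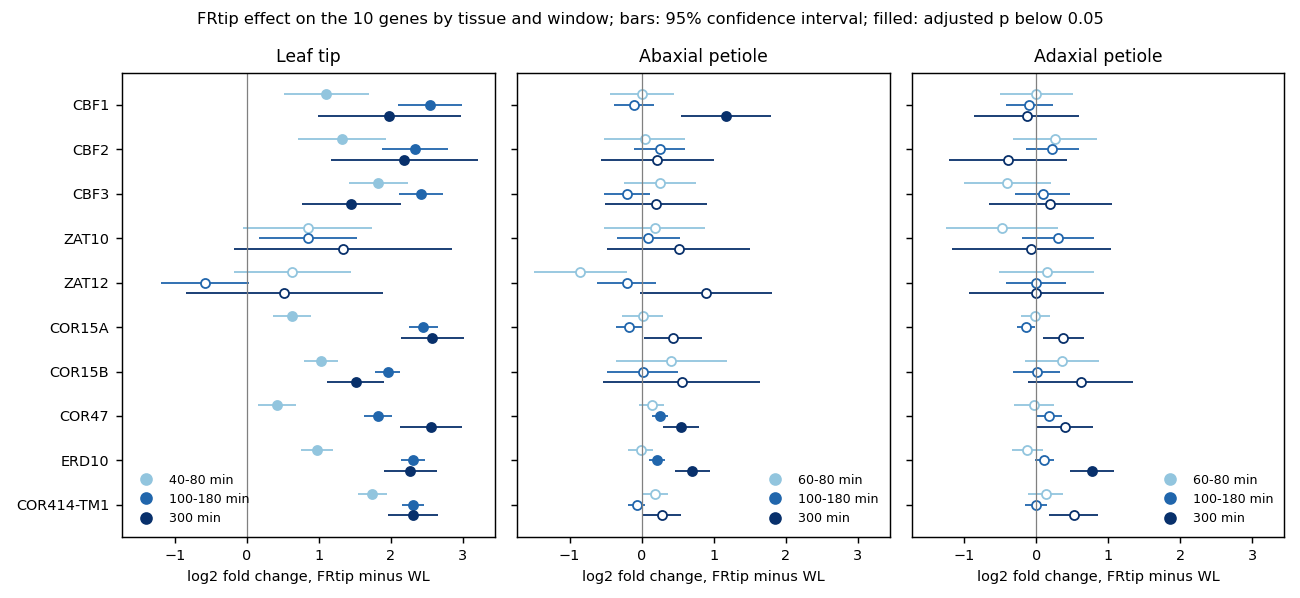
Log2 fold change (FRtip minus WL, x axis) of the 10 genes in each tissue and window of time, with bars for the 95% confidence interval and filled symbols for an adjusted p below 0.05. Of the 10 genes, 8 were filled in the leaf tip in all 3 windows, and in the petioles COR47 and ERD10 were filled in the abaxial side from 100-180 min on, CBF1 there at 300 min and ERD10 in the adaxial side at 300 min.

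The difference between tissues was tested directly. Between the leaf tip and the abaxial petiole the FRtip effect differed for 8 of the 10 genes at 100-180 min, against 18.8% of all genes in either direction, and for 5 of the 10 at 300 min, against 5.44%. At 100-180 min the leaf tip effect exceeded the abaxial effect by 2.38 ± 0.10 on the log2 scale for COR414-TM1 (adjusted p = 3.4e-42), 2.63 ± 0.14 for COR15A (4.7e-34) and 2.63 ± 0.23 for CBF3 (8.8e-19). The smallest of the 8 differences was that of COR47, 1.56 ± 0.11 (3.0e-23). CBF1 had no read in whole abaxial groups, and its difference of 2.64 was not called by edgeR (adjusted p = 1.00). At 300 min the genes were COR15A (2.14 ± 0.31), COR414-TM1 (2.03 ± 0.22), COR47 (2.01 ± 0.25), ERD10 (1.57 ± 0.22) and CBF2 (1.97 ± 0.63, adjusted p = 0.0459). The call of CBF2 was lost in most alternatives, with adjusted p values up to 0.322. Calls were also gained there, for CBF3 (1.26, adjusted p = 0.00169) and COR15B (1.05, 0.0252) with edgeR, and for CBF1 (1.12, 0.00526) and CBF3 (1.23, 0.00691) with a pseudocount of 5. Between the abaxial and the adaxial side limma and edgeR found a different FRtip effect for 0 of the 10 genes in either window, against 0.541% of all genes at 100-180 min and 0.0150% at 300 min. At an unadjusted p below 0.05 there were 0 genes at 100-180 min and 1 at 300 min, CBF1, whose abaxial minus adaxial difference was 1.31 with a 95% confidence interval of 0.41 to 2.22 (adjusted p = 0.611).

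In WL alone most of these genes were also higher late in the experiment, when 300 min was set against 60 min. In the leaf tip 7 of the 10 were higher at 300 min, against 11.7% of all genes. CBF3 averaged 61.0 ± 12.4 at 300 min and 2.92 ± 2.46 at 60 min (SD, n = 4 each), a log2 difference of 4.27 ± 0.34 (SE, adjusted p = 1.7e-16). COR15B averaged 2658 at 300 min and 113 at 60 min (4.54 ± 0.20, 1.4e-28), and COR15A 3479 at 300 min and 373 at 60 min (3.21 ± 0.22, 1.9e-19). COR414-TM1 averaged 394 at 300 min and 69.5 at 60 min (2.50 ± 0.17, 1.9e-19). COR47 (2.27), ERD10 (2.02) and CBF1 (19 reads at 300 min and 2 at 60 min, a ratio of 6.95 with a counting interval of 1.68 to 61.5) also passed. CBF2 was not called, with 0.02 ± 0.51 (adjusted p = 0.993), and neither were ZAT10 (-0.76, 0.529) and ZAT12 (0.19, 0.889). Each FRtip comparison above set samples of equal treatment time against each other.

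The effector genes rose on both petiole sides in WL too. In the abaxial petiole 7 of the 10 genes were higher at 300 than at 60 min, against 11.2% of all genes, and 1 was lower, against 12.8%. COR15B had a log2 difference of 4.34 ± 0.54 (adjusted p = 3.5e-09), CBF3 of 2.35 ± 0.35 (4.0e-07) and COR15A of 1.77 ± 0.20 (1.6e-10). ZAT12 was the lower gene, with 2 reads at 300 min and 20 at 60 min, a ratio of 0.0778 with a counting interval of 0.00881 to 0.320, and its call (adjusted p = 0.00417) was lost without replicate 3 (0.107). In the adaxial petiole 8 of the 10 were higher, against 10.9% of all genes. COR15B rose by 5.92 ± 0.37 (3.1e-21) and averaged 328 at 300 min and 5.20 at 60 min (n = 4 each), and CBF3 had 2.65 ± 0.43 (1.3e-06). CBF2 passed on the abaxial (1.05, 0.0441) and adaxial (1.25, 0.0210) sides, but both calls were lost without any of several single replicates, with adjusted p values up to 0.278 and 0.140. CBF1 in the adaxial petiole, with 9 reads at 300 min and 0 at 60 min and at least 2.11-fold higher against 3 reads (lower 95% counting limit against the 0 reads 1.39-fold), lost its call without replicate 3 (0.0561) and without replicate 4 (0.0546).

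The tissues also differed in their WL levels. Over the shared time points, 6 of the 10 genes were higher in the leaf tip than in the abaxial petiole, against 37% of all genes, and 2 were lower, against 46.3%. COR15B averaged 581 normalized read counts in leaf tips and 8.75 in abaxial petioles, a log2 difference of 6.19 ± 0.14 (adjusted p = 1.0e-68). The dehydrin genes ran the other way. COR47 averaged 210.0 in leaf tips and 1152 in abaxial petioles (-2.66 ± 0.06, 2.5e-67), and ERD10 490.0 and 913 (-1.09 ± 0.05, 1.1e-37). The other genes higher in the leaf tip were COR15A (1.41), COR414-TM1 (1.33), ZAT10 (1.33), CBF1 (0.81) and CBF3 (0.34). CBF1 was not called by edgeR (adjusted p = 1.00), and CBF3 lost its call without replicate 1, 3 or 4 (0.0580, 0.110 and 0.0721). Between the petiole sides 3 of the 10 genes were higher on the abaxial side, against 32% of all genes, and 2 were lower, against 35%. Neither count was above the share of all genes. COR47 (0.93 ± 0.06), ERD10 (0.55 ± 0.05) and COR414-TM1 (0.33 ± 0.05) were higher, whereas COR15A averaged 254 on the abaxial and 591 on the adaxial side (-1.17 ± 0.06) and COR15B 8.75 and 60.0 (-2.43 ± 0.17).

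Other genes of the cold response were read from lists by function. Of 17 further cold-induced genes downstream, 16 were tested. Of these, 8 were higher and 1 was lower in the leaf tip at 40-80 min, 13 were higher at 100-180 min and 11 at 300 min. Over all genes 4.31%, 12.5% and 5.42% were higher in these windows, and 6.52%, 17% and 5.80% were lower. At 40-80 min RCI2A, a small membrane protein gene, averaged 264 in FRtip and 70.8 in WL (1.82 ± 0.12, adjusted p = 2.9e-19), and GOLS2, a galactinol synthase gene of raffinose synthesis, averaged 16.5 in FRtip and 0.310 in WL, where it had hardly a read. The lower gene was COR413-PM1, with 281 in FRtip and 332 in WL (-0.24 ± 0.07, 0.00904). At 100-180 min RCI2A averaged 781 in FRtip and 148 in WL (2.49 ± 0.09, 1.4e-32) and RD29A, a classic CRT/DRE-bearing stress gene, 1749 and 152 (3.50 ± 0.14, 2.1e-31). At 300 min RCI2B averaged 123 in FRtip and 3.53 in WL (5.17 ± 0.47, 1.3e-13) and GOLS2 40.0 and 0.324. The median log2 fold change of the 16 genes in the leaf tip was 0.51, 1.08 and 1.33 in the 3 windows.

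In the petioles this list moved little. At 100-180 min 2 of the 16 genes were higher in the abaxial petiole, GOLS3 (0.50 ± 0.12, adjusted p = 0.00303) and GRP7 (0.18 ± 0.06, 0.0446), and 2 were lower, COR413-PM1 (-0.20 ± 0.04, 0.000357) and GOLS1 (-0.42 ± 0.12, 0.0108), against 5.93% higher and 4.57% lower over all genes. At 300 min RD29A averaged 2075 in FRtip and 899 in WL abaxial petioles (1.22 ± 0.17, 4.9e-07), and 2297 in FRtip and 891 in WL adaxial petioles (1.37 ± 0.16, 1.4e-08). ERD14, a dehydrin gene, rose in the abaxial petiole at that time (0.40 ± 0.10, 0.00490). GOLS1 was lower in the adaxial petiole at 100-180 min (-0.38 ± 0.12, 0.0388) and at 300 min (-0.91 ± 0.26, 0.0308). Over all genes, 4.77% were lower in the abaxial petiole at 300 min, 1.81% in the adaxial petiole at 100-180 min and 2.22% there at 300 min.

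**Figure D5:**
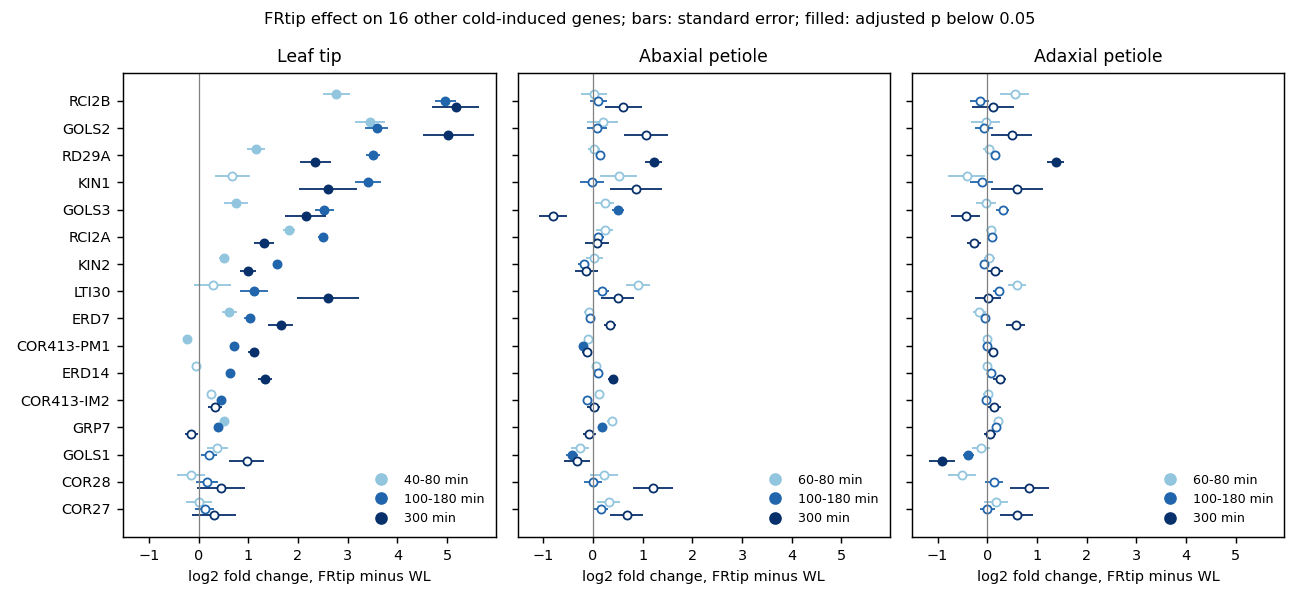
Log2 fold change (FRtip minus WL, x axis) of 16 other cold-induced genes in each tissue and window, with bars for the standard error and filled symbols for an adjusted p below 0.05. There were 13 genes filled in the leaf tip to the right of 0 at 100-180 min, and in both petiole sides RD29A was filled at 300 min. GOLS2 had hardly a read in WL leaf tips, so its fold change depends on the pseudocount.

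Of 20 listed regulators upstream of the CBF genes, 19 were tested. In the leaf tip 1 was higher and 3 were lower at 40-80 min, 5 and 4 at 100-180 min, and 2 and 1 at 300 min. Over all genes 4.31% were higher and 6.52% lower in the first window, 12.5% and 17% in the second and 5.42% and 5.80% at 300 min, so that 1 of 19 higher at 40-80 min, 4 of 19 lower at 100-180 min and 1 of 19 lower at 300 min were near the share of all genes. PIF7, a repressor of CBF genes, was lower in each window, with 252 in FRtip and 545 in WL at 40-80 min (-1.15 ± 0.07, adjusted p = 4.6e-21), 151 and 503 at 100-180 min (-1.73 ± 0.05, 1.1e-36) and 126 and 263 at 300 min (-1.07 ± 0.12, 3.2e-10). PIF4, another such repressor, was lower at 40-80 min (444 in FRtip and 605 in WL, -0.48 ± 0.06, 2.3e-10) and at 100-180 min (422 and 630.5, -0.58 ± 0.04, 1.2e-18). These are transcript levels, which do not measure the activity of PIF proteins. A part of PIF4 or PIF7 in the rise of the CBF genes was not tested. EIN3, an ethylene factor reported to repress CBF genes, was higher at 40-80 min (0.53 ± 0.09, 2.4e-06) and at 100-180 min (0.49 ± 0.07, 5.0e-09), as was the clock gene PRR9 at 100-180 min (0.52 ± 0.07, 1.2e-08). At 300 min the clock genes RVE8 (0.96 ± 0.26, 0.00685) and PRR7 (0.26 ± 0.09, 0.0358) were higher. In the abaxial petiole CCA1 (-0.22, 0.0116) and RVE4 (-0.17, 0.0383) were lower at 100-180 min, against 4.57% of all genes. At 300 min PIF3 was higher there (0.73, 0.0111), against 2.92%, and RVE8 lower (-0.68, 0.0326), against 4.77%. In the adaxial petiole CCA1 was lower at 100-180 min (-0.20, 0.0410), against 1.81%, and PIF3 higher at 300 min (1.14, 0.00170), against 1.40%. These were the only petiole calls of the list, and 1 of 19 lower in the abaxial petiole at 300 min was near the share of all genes.

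In WL leaf tips between 60 and 300 min, 8 of these regulators were lower at 300 min and 3 were higher, against 13.5% of all genes lower and 11.7% higher. CCA1, a morning clock gene, averaged 14.7 at 300 min and 570.4 at 60 min (-5.21 ± 0.15, adjusted p = 3.6e-37), LHY 1.90 and 165 (-6.26 ± 0.30, 8.9e-27), and PRR5, expressed later in the day, 368 and 1.40 (7.84 ± 0.54, 2.6e-19). These clock transcripts moved with the WL climb of the CBF and effector genes, and their part in it was not tested. Of the 16 downstream genes 13 were higher at 300 min in WL, among them GRP7, an evening clock output gene (7.44 ± 0.13, 9.7e-51) and KIN2 (4.15 ± 0.17, 1.3e-30), and 1 was lower, GOLS1 (-1.64 ± 0.36, 0.000218).

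Among 8 other transcription factor genes that respond early to cold, HSFC1 averaged 134 in FRtip and 46.3 in WL leaf tips at 40-80 min (1.5 ± 0.12, adjusted p = 4.8e-16), and RAV1 325 and 99.6 at 100-180 min (1.69 ± 0.07, 1.1e-28). In all, 2, 3 and 1 of the 8 were higher in the 3 leaf tip windows, against 4.31%, 12.5% and 5.42% of all genes. HSFC1 was also higher in abaxial petioles at 100-180 min (0.58 ± 0.07, 4.8e-09) and at 300 min (0.69 ± 0.16, 0.00276), and in adaxial ones at 100-180 min (0.24 ± 0.08, 0.0477). The relatives of the CBF genes DREB2A and DREB2B, which act in drought and heat, were not called in the leaf tip under FRtip, with log2 fold changes of 0.21 and 0.19 at 40-80 min (adjusted p = 0.827 and 0.814), -0.53 and 0.33 at 100-180 min (0.119 and 0.285) and 0.54 and 0.32 at 300 min (0.688 and 0.808). In WL leaf tips both rose between 60 and 300 min, by 3.66 ± 0.58 (5.7e-07) and 3.54 ± 0.49 (2.6e-08). Of the 4 tested relatives of ZAT10 and ZAT12, ZAT5, AZF1, AZF2 and AZF3, the lowest adjusted p in the leaf tip was that of AZF2 at 100-180 min (0.60 ± 0.25, 0.0576), and AZF3 rose in the abaxial petiole in that window (0.26 ± 0.06, 0.00121). CBF4, DDF1, DDF2, MYB15, ZAT7, ZAT8, ZAT11 and RD29B had a mean below 1 and were not tested.

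Likeness of pattern was described over the 50 means of tissue, treatment and time point, after each gene was centered within its tissue on the log2 scale. These means share libraries and hours of the day, so the correlations are descriptions. COR15A and COR47 were at r = 0.97, CBF1 and COR414-TM1 at 0.95, and ZAT12 was between -0.24 and -0.13 with the 8 CBF and effector genes. Among 16030 other genes, those most like COR15A were AT3G55760 (0.98), LTI78, which is RD29A (0.98), and KIN1 (0.95). Those most like COR47 were LTI78 (0.97), ERD14 (0.96) and AT3G55760 (0.95). CBF2 was most like HB5 (0.86), AT5G50330 (0.86) and AT2G21520 (0.86). The highest values for ZAT12 were lower, 0.56 for NCLPP7, 0.52 for AT3G16270 and 0.50 for AT5G11500.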

How the data were processed

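RNA of leaf tips and split petioles had been sequenced with BrAD-seq, a strand-specific poly-A library method. The submitters' processing notes name FastQC, STAR, Picard, HTSeq, DESeq and the TAIR10 build; versions, counting strand and the treatment of reads matching several genes are not given in the sources used here. The deposited table holds a signal made by the authors, read counts per locus divided by a size factor per sample. Whole reads were recovered from its steps for 100% of values (tolerance 1e-06 reads).

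Groups followed the labels. The 5 petiole samples of 40 min were left out of the tests, which used 199 of 204 samples. Differences were tested on log2(normalized count + 1) with limma 3.58.1 (trended empirical Bayes, two-sided, R 4.3.3) over 19963 genes with a mean of at least 1, with Benjamini-Hochberg adjustment over all of them and a threshold of 0.05. Windows pooled the time points as a mean of their differences. Single time points followed the study's rule, p under 0.01 with a log2 fold change beyond 0.3. Intervals are at 95%, and groups at 0 were set to 3 reads. Other settings tried were a pseudocount of 0.5 or 5, a minimum mean of 10, no filter, median centering, a replicate block, each replicate left out in turn, edgeR 4.0.16 on the recovered reads and, for single time points, 1 fit over all times or an adjusted p. The methods were tested on simulated data in which only genes with higher counts were changed. Recovery of changes in genes with few reads, such as CBF1 and ZAT12, was not covered. The members and gene lists were chosen with earlier results of these data known. List genes named are the 2 with the smallest p in each direction, list and window. Sequences came from RefSeq TAIR10.1, whose annotation held 32835 of the loci.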

Additional observations from a re-analysis of the deposited data

Results flagged for a closer look

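Of 271 groups of 4 samples with a mean of at least 10, 9 held a sample far from the other 3, or 3.32%, where chance gives about 5%. In the leaf tip these were CBF1 in FRtip at 140 min (replicate 2 at 3.77, the others at 13.7 to 14.9), COR47 in FRtip at 60 min (replicate 4 at 314, the others at 116 to 149), ERD10 in FRtip at 120 min (replicate 4 at 2129, the others at 1383 to 1473), ERD10 in WL at 140 min (replicate 1 at 426, the others at 323 to 336), COR414-TM1 in WL at 120 min (replicate 1 at 177, the others at 121 to 125) and COR414-TM1 in FRtip at 180 min (replicate 1 at 882, the others at 1113 to 1136). In the petioles they were COR15A in adaxial WL at 300 min (replicate 2 at 1080, the others at 1577 to 1671), COR47 in adaxial WL at 100 min (replicate 4 at 642, the others at 427 to 456) and COR47 in abaxial FRtip at 120 min (replicate 4 at 1668, the others at 1220 to 1247).

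The FRtip effect was larger in the leaf tip than in the abaxial petiole, by the test of the difference, for 8 genes at 100-180 min. The log2 differences were 2.64 for CBF1, 2.08 for CBF2, 2.63 for CBF3, 2.63 for COR15A, 1.94 for COR15B, 1.56 for COR47, 2.09 for ERD10 and 2.38 for COR414-TM1. At 300 min they were 1.97 for CBF2, 2.14 for COR15A, 2.01 for COR47, 1.57 for ERD10 and 2.03 for COR414-TM1. With edgeR, CBF1 was not called at 100-180 min, and CBF3 and COR15B were also called at 300 min. The call of CBF2 at 300 min was lost in most alternatives. Within the leaf tip the effect was larger at 300 min than at 40-80 min for COR15A (1.95), COR47 (2.14) and ERD10 (1.30).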

How the results depend on the processing

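Of 2014 values of single genes under the alternatives, 1954 stayed on their side of the threshold, 35 lost a call, 25 gained one and 0 reversed a call. In 83 the sign differed with an adjusted p at or above 0.05 in both. In proportion, single time point counts moved most in the petioles. Single time point calls on the adaxial side, 2 as reported, became 4 with a mean of at least 10, 1 without a filter, 4 with median centering, 5 with edgeR, 1 by adjusted p and between 1 and 4 when a replicate was left out. Those on the abaxial side, 4 as reported, became 2 without a filter, 7 in 1 fit over all time points, 2 by adjusted p and between 1 (without replicate 4) and 5 when a replicate was left out. The leaf tip count of 61 stayed between 47 and 67. edgeR called 3 genes in the adaxial petiole at 300 min, against 1, and the effect differed between 300 and 40-80 min in the leaf tip for 5 genes with a pseudocount of 5, against 3. The cause was not tested. Samples of equal replicate number correlated above 0.1 in 31 of 99 pairs (median r = 0.08), and no label says what a number shares, so they were not treated as paired. In the data, however, 79 of the 99 correlated best with their own number, so the fits without a block may leave out a real pairing. With the replicate block, adaxial and abaxial single time point calls became 7 each, calls over all genes in the abaxial petiole at 300 min became 2169, against 1535, and 1 gene, COR47, was called in the adaxial petiole at 100-180 min (0.18, adjusted p = 0.0391). Median centering moved the share higher among all genes whose effect differed between leaf tip and abaxial petiole at 300 min to 52.1%, against 65.1%, and edgeR that in the adaxial petiole at 300 min to 49.6%, against 38.6%. Low read numbers limit CBF1 and ZAT12 in every tissue. They also limit ZAT10 and CBF2 in the petioles, and COR15B in the abaxial petiole before 300 min. In WL abaxial petioles of 100-180 min the medians were 1.14 for ZAT10, 4.30 for CBF2 and 3.72 for COR15B. The differences between leaf tip and abaxial petiole of CBF2 and COR15B in that window thus rest in part on values of few reads.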
